A study of Mus musculus with 12 samples.

Results

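The 10 genes of the fibroblast growth factor (FGF) family followed here were measured in 3T3-L1, a mouse preadipocyte line of fibroblast shape that becomes fat-storing under hormones. They were the 6 ligand genes Fgf1, Fgf2, Fgf7, Fgf10, Fgf18 and Fgf21, the 3 receptor genes Fgfr1, Fgfr2 and Fgfr3, and the coreceptor gene Klb, that is 10 of the 55487 genes in the expression table, chosen by symbol. Cells of the control line, shScram, carried a scrambled lentiviral hairpin. Cells of the line shFto were given a hairpin against Fto, the gene of an RNA demethylase. Both lines were selected with puromycin. The study lists 2 hairpins against Fto, and the sample titles do not say which was used, or whether both were. Lower Fto and other effects of a hairpin or a line cannot be told apart here. Each line was collected as preadipocytes (Pre), at mitotic clonal expansion after the induction mixture had been added (MCE), and after differentiation (Diff), with 2 libraries in each of the 6 groups and 12 libraries in all. Libraries of cells given rhein were not used here. Whether the cells of a line came from 1 clone, and whether the libraries of a group came from separate cultures, is not given in the sources used here, so the p-values measure the spread between these libraries, which may be technical.

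FGFs are secreted proteins that bind receptor tyrosine kinases together with heparan sulfate chains on the cell surface. Binding starts the RAS, MEK and ERK kinase cascade, which in turn switches on genes that dampen it, such as the Sprouty and Spred inhibitors and the dual specificity phosphatase Dusp6. Fgf7 and Fgf10 act mainly through the IIIb splice form of Fgfr2, Fgf2 acts through several receptors, and Fgf21 is a hormone that needs the coreceptor beta-Klotho, encoded by Klb. In fat tissue, Fgf10 and Fgf1 are known as factors of adipocyte formation and remodelling, and Fgf2 as a growth factor of preadipocytes.

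Levels are given as TPM, the transcripts of a gene corrected for its length and scaled to 1 total in all libraries, so that levels can be compared between genes. TPM keeps no sequencing depth, and the depth behind each value is unknown. The IIIb and IIIc splice forms of the receptors are not separated in values per gene. In cultures of mixed cells, fewer cells of a type and less RNA per cell cannot be told apart. Fto lay between 52.7 and 73.5 TPM in the 6 shScram libraries and between 5.51 and 7.47 TPM in the 6 shFto libraries (exact permutation within stages, two-sided, p = 0.00926, the smallest that 216 arrangements allow). The treatment entry of shScram replicate 1 at Diff names the knockdown while its title names shScram. The title was followed, and Fto in that library was 73.5 TPM. Replicate 1 of shScram at Pre stood apart from replicate 2 (correlation of log2(TPM + 1) across genes 0.939, against 0.990 to 0.993 in the other groups), and the gap between both libraries ran with GC content across genes (Spearman's rho -0.711 over 15928 genes, which are not independent). GC content, pooled over all transcripts of a gene, was 54.9% for Fgfr1 and 39.2% for Fgf7. Their Pre values after a correction for GC content are given with each gene. Of 15 adipocyte markers, 13 reached 1 TPM in a library, and their summed level at Diff was 1745 and 1770 TPM in the control line, shScram, beside 491 and 530 TPM in shFto. All 10 fibroblast markers reached 1 TPM, with sums of 7080 to 12670 TPM. Between the lines 5 of these 10 were called at Pre (3 higher, 2 lower in shFto), 6 at MCE (4 higher, 2 lower) and 4 at Diff (3 higher, 1 lower). Of all genes tested, 28.2%, 17.8% and 21.2% were called at these stages (15.9%, 10.5% and 11.9% higher, 12.3%, 7.26% and 9.31% lower). The median log2 fold changes of the 10 markers were 0.44, 0.89 and 0.44, beside 0.08, 0.05 and 0.03 over all genes. The part of these markers in the levels of the ligand genes was not tested. None of 5 endothelial markers reached 1 TPM, and of 5 markers each, 2 macrophage, 1 myogenic and 1 epithelial marker did. Kdr, Adgre1, Myod1, Myf5 and Cldn4 were at 0 in all 12 libraries.

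Fgfr2, Fgf7, Fgf10, Fgf21 and Fgf2 were each called between the lines at a stage. Fgfr2 was called at all 3 stages, Fgf7 and Fgf10 at MCE and Diff, Fgf21 at Pre only and Fgf2 at MCE only. The sequences before the start sites of these members other than Fgf2 are shown. They are the 250 bases before the RefSeq start on GRCm38.p6, written 5′ to 3′ along the gene, and 8 of the 10 members had an entry. Capitals mark matches on either strand to TATAAA, the CCAAT box, the GC box GGGCGG, the AP-1 site TGANTCA, the C/EBP motif TTGCNNAA, the ATF4 and C/EBP element TGATGNAAT, the E-box CACGTG or the cAMP element TGACGTCA.
Fgfr2: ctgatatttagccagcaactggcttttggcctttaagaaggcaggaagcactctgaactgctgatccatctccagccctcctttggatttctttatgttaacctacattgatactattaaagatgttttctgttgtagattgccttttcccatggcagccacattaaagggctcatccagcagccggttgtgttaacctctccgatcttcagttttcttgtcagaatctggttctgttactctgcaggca
Fgf7: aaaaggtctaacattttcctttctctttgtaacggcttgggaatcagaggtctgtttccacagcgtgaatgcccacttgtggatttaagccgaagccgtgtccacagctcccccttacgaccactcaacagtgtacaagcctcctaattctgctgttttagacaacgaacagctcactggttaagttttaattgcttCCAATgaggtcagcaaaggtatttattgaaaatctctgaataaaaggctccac
Fgf10: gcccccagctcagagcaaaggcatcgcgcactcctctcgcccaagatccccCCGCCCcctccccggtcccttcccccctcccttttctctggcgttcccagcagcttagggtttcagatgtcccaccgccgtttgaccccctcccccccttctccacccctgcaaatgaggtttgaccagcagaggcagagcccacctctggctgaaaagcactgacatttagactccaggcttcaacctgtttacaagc
Fgf21: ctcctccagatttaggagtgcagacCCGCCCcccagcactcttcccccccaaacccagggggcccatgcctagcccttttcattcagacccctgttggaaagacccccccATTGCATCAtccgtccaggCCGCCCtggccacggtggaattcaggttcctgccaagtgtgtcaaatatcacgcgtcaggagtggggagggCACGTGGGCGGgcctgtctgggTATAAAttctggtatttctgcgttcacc
In the Fgfr2 window, on the minus strand of chromosome 7 (chr7:130266809-130267058), no letters matched any of the 8 motifs. The Fgf7 window (chr2:126034408-126034657, plus strand) held 1 CCAAT box, as did 33.8% of the 32851 promoters searched. The Fgf10 window (chr13:118714449-118714698, plus strand) held 1 GC box, as did 32.7% of the promoters. This window lies inside the GENCODE gene model of Fgf10, which starts at 118669791. The Fgf21 window (chr7:45615491-45615740, minus strand) held a TATA box, found in 12.4% of the promoters, an E-box, found in 6.02%, 3 GC boxes, of which the last overlaps the E-box by 1 base, and an ATF4 and C/EBP element, found in 0.816%. The remaining motifs were found in 6.75% (AP-1), 9.56% (C/EBP) and 1.55% (cAMP element) of the promoters and in none of these 4 windows. These are matches of letters and no measurement of binding.

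The levels of the 10 genes spanned several orders of magnitude. Fgfr1 was the highest, with a mean of 386 TPM over the 12 libraries, followed by Fgf7 (102.2 TPM), Fgfr2 (33.9 TPM), Fgf10 (20.1 TPM), Fgf2 (4.68 TPM), Fgf21 (1.82 TPM) and Fgfr3 (0.966 TPM). In this order Fgfr2 and Fgf10 changed places between the lines, since Fgfr2 was above Fgf10 in all 6 shScram libraries and below it in all 6 shFto libraries. Fgf1, Fgf18 and Klb stayed near 0. Fgf1 reached 0.317 TPM at most, Fgf18 reached 1.42 TPM and Klb reached 0.342 TPM, and these 3 genes did not pass the filter of 1 TPM in at least 2 libraries. At Pre, Fgf18 was listed at 0 and 0.339 TPM in the shScram pair and at 0.624 and 1.42 TPM in the shFto pair, and no test was made of these 3 genes. The other 7 members were tested by limma after a log2(TPM + 1) transformation, on which fold changes of weakly expressed genes come out too small, among 15968 genes that passed, and a gene was called at a Benjamini-Hochberg adjusted p under 0.05.

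**Figure D1:**
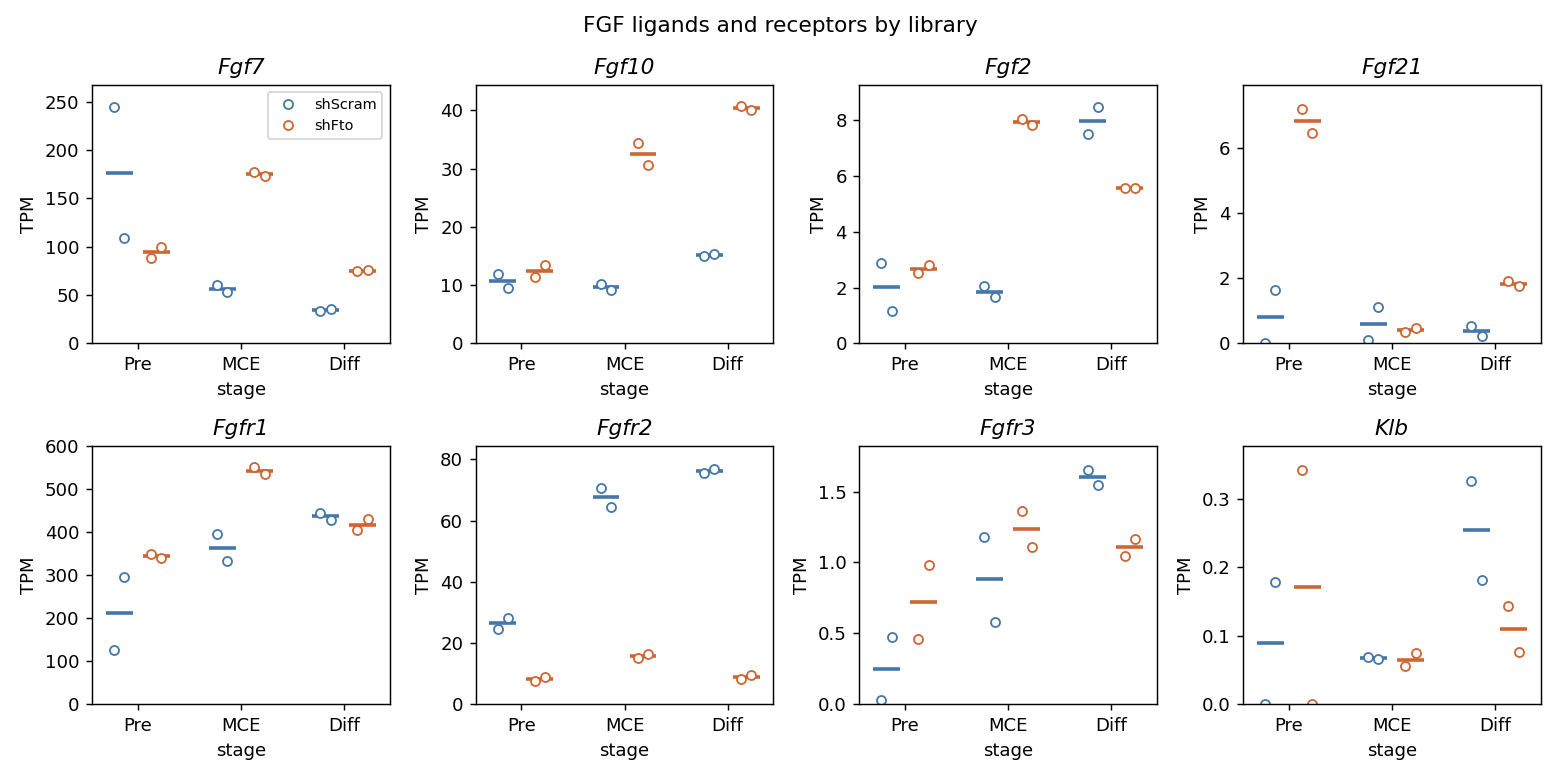
TPM (linear axis from 0) of 8 genes by stage, with 1 open point per library and a line at the mean of the 2 libraries, in blue for shScram and orange for shFto. Fgfr2 is lower in every shFto library than in any shScram library of its stage, while Fgf7 and Fgf10 are higher in shFto at MCE and Diff, and Klb stays under 0.342 TPM throughout.

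The first question was which of these genes differed between the lines. The fit holds 1 estimate of spread per gene over the 6 groups. A gap between the shScram libraries at Pre thus enters the standard errors at MCE and Diff too. At Pre, 2 of the 7 members tested were called, against 28.2% of all genes tested (15.9% higher and 12.3% lower in shFto). This count was 5 without shScram replicate 2 at Pre, where 62.8% of all genes were called, and 1 without shFto replicate 1 at Pre. At MCE 4 of 7 were called, against 17.8% (10.5% higher, 7.26% lower), and at Diff 3 of 7, against 21.2% (11.9% higher, 9.31% lower). Without replicate 1 or 2 of shScram at Pre, the libraries that differ most within a group, 5 of 7 were called at Diff, beside 45.7% and 45.6% of all genes. Averaged over the stages 5 of 7 were called, against 42.8%, with log2 fold changes of 0.51 for Fgf2, 0.64 for Fgf7, 1.07 for Fgf10, 1.06 for Fgf21 and -2.19 for Fgfr2. Of these, Fgf2 kept a limma adjusted p under 0.05 in 16 of 20 alternatives and Fgf7 in 20 of 21, while Fgf10, Fgf21 and Fgfr2 kept it in all. The settings in which Fgf2 missed it included the fits without shFto replicate 2 at Pre, shScram replicate 2 at MCE or shScram replicate 1 at Diff. The median log2 fold change of the 7 members was 0.33 at Pre, 0.58 at MCE and -0.07 at Diff, and that of all genes was 0.08, 0.05 and 0.03.

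Fgfr2, a receptor tyrosine kinase, was lower in shFto cells at every stage. It lies on the minus strand of chromosome 7 from 130162451 to 133123350 in GENCODE M21. In shScram libraries it was at 24.7 and 28.2 TPM at Pre, 70.8 and 64.5 TPM at MCE, and 75.7 and 77.0 TPM at Diff. In shFto libraries it was at 7.56 and 9.02 TPM at Pre, 15.1 and 16.5 TPM at MCE, and 8.13 and 9.70 TPM at Diff. The highest shFto library was thus below the lowest shScram library of any stage. The mean in shFto was 31.4%, 23.4% and 11.7% of that in shScram at the successive stages. On the log2 scale Fgfr2 fell by 1.56 (standard error 0.14, limma adjusted p = 0.000246) at Pre, by 2.03 (adjusted p = 3.83e-05) at MCE and by 2.97 (adjusted p = 2.97e-06) at Diff. It stayed between -3.17 and -1.45 over all alternatives at the 3 stages, and the Pre call was lost only with the 4 Pre libraries fitted alone (adjusted p = 0.16). Without shScram replicate 1 the value at Pre was -1.66, and without the shScram library with the disputed label it was -2.98 at Diff. That gene model runs far past the RefSeq start and spans Ate1 and many other genes, among them Nsmce4a, Chst15 and Oat on the same strand. Ate1 was at 15.1 to 22 TPM in all libraries, and the levels of the others are not given here. Whether reads of Fgfr2 and any of these genes were shared was not tested.

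The adipocyte markers and Fgfr2 both stood lower in shFto at MCE and Diff. At MCE 7 of 12 adipocyte markers tested were called lower and 1 higher, and at Diff 9 were called lower and none higher, against 7.26% and 9.31% of all genes called lower. At Pre, where Fgfr2 was also lower, 2 of the 12 markers were called higher and 1 lower. Of all genes 15.9% were called higher and 12.3% lower at Pre, so that this count is near the share of all genes. The part of this in the level of Fgfr2 was not tested.

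Fgf7, a secreted ligand of Fgfr2 made by stromal cells, moved the other way at MCE and Diff. It lies on the plus strand of chromosome 2 from 126034658 to 126091185. Its shScram values were 244 and 108.9 TPM at Pre, 60.3 and 52.9 TPM at MCE, and 33.5 and 35.8 TPM at Diff. Its shFto values were 88.8 and 99.4 TPM at Pre, 177 and 174 TPM at MCE, and 74.5 and 76.4 TPM at Diff. Every shFto library was above every shScram library at MCE and at Diff, and below both at Pre, where the 2 shScram libraries were far apart. The mean in shFto was 3.10 times that in shScram at MCE and 2.18 times at Diff. The log2 fold change was 1.62 (standard error 0.30, limma adjusted p = 0.00597) at MCE and 1.10 (adjusted p = 0.0291) at Diff. At Pre it was -0.79 (adjusted p = 0.0745; -0.21 without shScram replicate 1 and -1.37 without shScram replicate 2, the last with an adjusted p of 1.3e-06), and after the GC correction it was -0.25 (adjusted p = 0.237). The call at MCE was lost without shScram replicate 2 at MCE (adjusted p = 0.0509), and that at Diff without any of the 4 Diff libraries (adjusted p = 0.112 to 0.136) or either shFto library at MCE (adjusted p = 0.0513). Fam227b, which overlaps Fgf7 on the opposite strand, stayed under 0.761 TPM.

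Fgf10, which like Fgf7 acts mainly through Fgfr2 and is a factor of adipocyte formation, was near 10 TPM in preadipocytes of both lines. It lies on the plus strand of chromosome 13 from 118669791 to 118792115. In shScram libraries it was at 11.8 and 9.59 TPM at Pre, 10.2 and 9.13 TPM at MCE, and 15.0 and 15.3 TPM at Diff. In shFto libraries it was at 11.4 and 13.4 TPM at Pre, 34.4 and 30.6 TPM at MCE, and 40.7 and 40.1 TPM at Diff. The lines overlapped at Pre and were apart at MCE and Diff. The log2 fold change was 1.65 (standard error 0.14, limma adjusted p = 0.000125) at MCE and 1.36 (adjusted p = 0.000292) at Diff, and both calls held under every alternative run. At Pre it was 0.20 (adjusted p = 0.315, 95% interval -0.13 to 0.52), and 0.62 (adjusted p = 0.00192) after a correction for GC content.

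Fgf2, a growth factor that lacks a signal peptide, was higher in shFto cells at MCE. It lies on the plus strand of chromosome 3 from 37348346 to 37410108. The shScram values were 2.90 and 1.17 TPM at Pre, 2.05 and 1.66 TPM at MCE, and 7.50 and 8.46 TPM at Diff. The shFto values were 2.52 and 2.80 TPM at Pre, 8.05 and 7.83 TPM at MCE, and 5.58 TPM in both at Diff. At MCE every shFto library was above every shScram library, and at Diff every one was below. The log2 fold change was 1.65 (standard error 0.25, limma adjusted p = 0.00216) at MCE, a call that held under every alternative in which the gene was tested. At Diff it was -0.45 (adjusted p = 0.242, 95% interval -1.0 to 0.11; 0.0273 and 0.025 without shScram replicate 1 and 2 at Pre). At Pre it was 0.33 (adjusted p = 0.321), and it was 0.75 (adjusted p = 0.0103) without shScram replicate 1 and -0.09 (adjusted p = 0.66) without shScram replicate 2. Nudt6 overlaps Fgf2 on the opposite strand and was at 1.29 to 7.65 TPM, and since the use of strand in counting is not given in the sources used here, reads of both genes may be mixed and the Fgf2 values are uncertain.

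Fgf21, the hormone of the set, was low and was seen mainly in shFto preadipocytes. It lies on the minus strand of chromosome 7 from 45613886 to 45615490. In shScram libraries it was at 0 and 1.65 TPM at Pre, 0.102 and 1.11 TPM at MCE, and 0.533 and 0.239 TPM at Diff. In shFto libraries it was at 7.20 and 6.45 TPM at Pre, 0.359 and 0.476 TPM at MCE, and 1.91 and 1.75 TPM at Diff. The log2 fold change was 2.26 (standard error 0.43, limma adjusted p = 0.00784) at Pre. It was 1.56 (adjusted p = 0.00703) without shScram replicate 1, the library at 0, and the call was lost without shFto replicate 1 (adjusted p = 0.0589) or with the 4 Pre libraries fitted alone (adjusted p = 0.216). At Diff it was 1.04 (adjusted p = 0.128; 0.0114 and 0.0118 without shScram replicate 1 and 2 at Pre), and at MCE it was -0.11 (adjusted p = 0.91, 95% interval -1.09 to 0.87; 0.36 without shScram replicate 2 at MCE and 0.05 with a pseudocount of 0.1). Its coreceptor gene Klb was at 0 to 0.342 TPM in these cells.

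Fgfr1, the most abundant receptor, was not called at any stage, though alternatives called it at Pre and MCE. It lies on the plus strand of chromosome 8 from 25513654 to 25575718. In shScram Fgfr1 was at 127.1 and 295 TPM at Pre, 395 and 333 TPM at MCE, and 445 and 429 TPM at Diff. In shFto Fgfr1 was at 350 and 341 TPM at Pre, 551 and 535 TPM at MCE, and 404 and 430 TPM at Diff. The lines were apart at Pre and MCE and overlapped at Diff. The standard error was 0.31 at each stage, since the groups share the spread. Leaving out a shScram library at Pre therefore changes the standard error at MCE, while the log2 fold change there, 0.58, does not use the Pre libraries and cannot move. The log2 fold change was 0.83 (limma adjusted p = 0.0732, 95% interval 0.13 to 1.53) at Pre, 0.58 (adjusted p = 0.257) at MCE and -0.07 (adjusted p = 0.91, 95% interval -0.77 to 0.64) at Diff. At Pre it was 0.22 without shScram replicate 1 and 1.43 without shScram replicate 2, the alternative that called it. The value at Pre thus depends on which of these 2 libraries is used. After the GC correction it was 0.36 (limma adjusted p = 0.0954). At MCE it was called without shScram replicate 1 or 2 at Pre (adjusted p = 0.000331 and 0.000328), with the 4 MCE libraries fitted alone (adjusted p = 0.0163) and after the GC correction (0.49, adjusted p = 0.0333). Fgfr3 was between 0.0285 and 1.66 TPM and was not called at any stage, with a log2 fold change of 0.47 at Pre (0.73, adjusted p = 0.0383, without shScram replicate 2 and -0.23 after the GC correction), 0.27 at MCE and -0.30 at Diff.

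**Figure D2:**
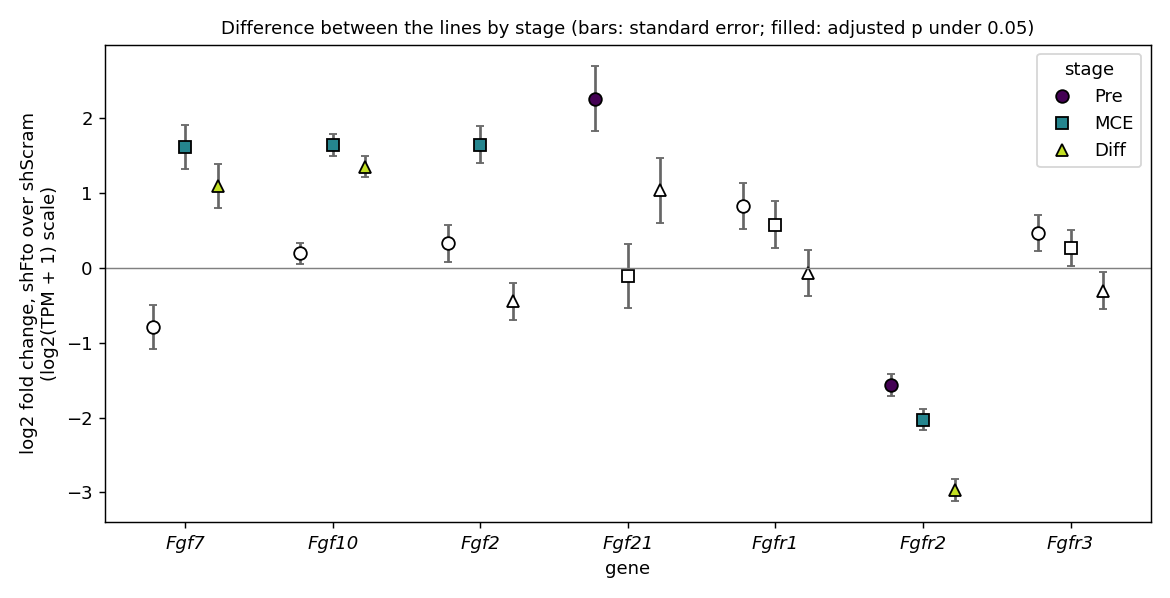
Log2 fold change of shFto over shScram on the log2(TPM + 1) scale for the 7 members tested, with standard errors as bars, by stage (circle Pre, square MCE, triangle Diff), filled where the limma adjusted p was under 0.05. Fgfr2 reaches -2.97 at Diff, and Fgf7, Fgf10 and Fgf2 lie between 1.62 and 1.65 at MCE.

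The receptors together show how the make-up differed. Of the summed TPM of Fgfr1, Fgfr2, Fgfr3 and Fgfr4, Fgfr2 made up 8.70% to 16.3% in the 6 shScram libraries and 1.96% to 2.99% in the 6 shFto libraries, and the ranges do not overlap. Fgfr1 made up 83.6% to 91.1% in shScram and 96.8% to 97.7% in shFto. The summed TPM of Fgf7 and Fgf10, divided by that of Fgfr2, was 0.961 and 0.996 at MCE and 0.641 and 0.664 at Diff in shScram libraries. In shFto libraries it was 12.4 and 14.0 at MCE, and 12 and 14.2 at Diff. At Pre it was 4.20 and 10.4 in shScram and 12.5 and 13.3 in shFto. These ratios are of messenger RNA levels and were not tested. The Fgfr2 level counts the IIIb and IIIc splice forms together, so they do not give the level of ligand per IIIb form.

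**Figure D3:**
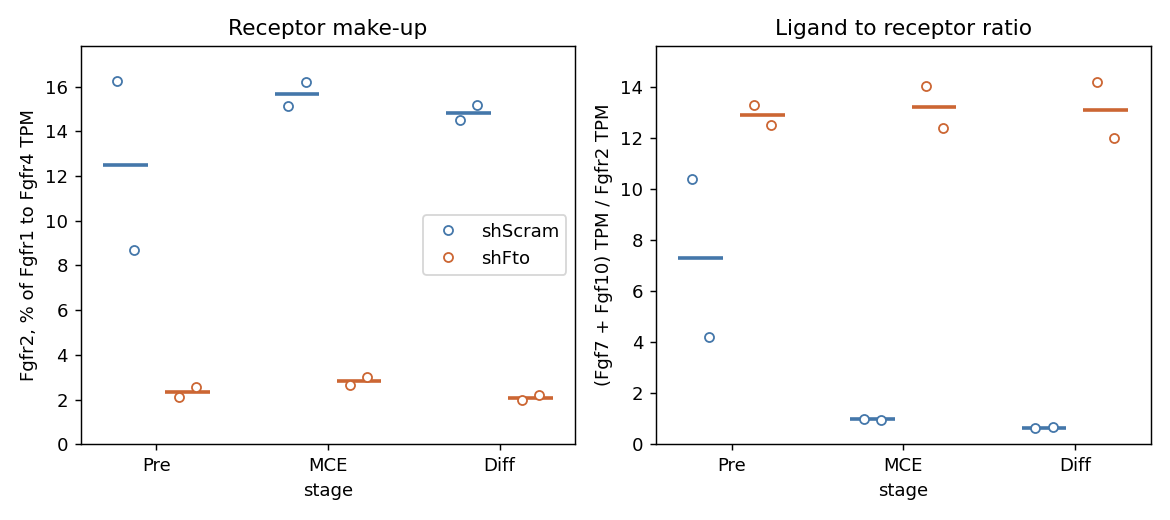
Left, the percentage of Fgfr2 in the summed TPM of Fgfr1 to Fgfr4; right, the summed TPM of Fgf7 and Fgf10 over that of Fgfr2, both on linear axes from 0 by stage, with 1 open point per library and a line at the mean of the 2 libraries (blue shScram, orange shFto). The shFto points stay under 2.99% on the left and between 12 and 14.2 on the right, while shScram falls to 0.641 at Diff on the right.

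The next question was how the members moved along differentiation within a line. The median of all genes shifted by -0.17 and 0.23 in shScram and by -0.18 and 0.17 in shFto at the steps from Pre to MCE and from MCE to Diff, and lay between -0.00298 and 0.0101 under median-ratio scaling, so that steps are read relative to these shifts. Of the genes called from Pre to MCE, 31.1% rose in shScram and 30.6% in shFto, against 53.1% and 50.2% under that scaling, and from MCE to Diff 79.3% and 75.7%, against 51.4% and 54.8%. In shScram, from Pre to MCE 3 of 7 members were called, against 39.1% of all genes. Fgfr2 rose by 1.33 (limma adjusted p = 0.000171) and Fgfr1 by 0.90 (adjusted p = 0.0464), and Fgf7 fell by 1.51 (adjusted p = 0.00451). Without shScram replicate 1 at Pre these values were 1.23, 0.30 and -0.94, and the call of Fgfr1 was lost under most alternatives, with an adjusted p of up to 0.284. Without replicate 2 at Pre 5 of 7 members were called, beside 64.7% of all genes. From MCE to Diff 2 of 7 were called in shScram, against 25.2%, and 4 without either shScram library at Pre, beside 52.0% of all genes. Fgf2 rose by 1.65 (adjusted p = 0.00198), and Fgf10 rose by 0.60 (adjusted p = 0.0173), which became 0.35 (adjusted p = 0.149) under median-ratio scaling and missed the threshold without shScram replicate 2 at MCE (adjusted p = 0.12) or without either Diff library of shScram (adjusted p = 0.0752 and 0.0963).

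In shFto, from Pre to MCE 4 of 7 members were called, against 28.7%. Fgf2 rose by 1.29 (limma adjusted p = 0.00437), Fgf10 by 1.32 (adjusted p = 0.000216) and Fgfr2 by 0.86 (adjusted p = 0.00205), while Fgf21 fell by 2.47 (adjusted p = 0.00284). Fgf7 had a log2 fold change of 0.89 (adjusted p = 0.0515; 1.06e-05 and 1.04e-05 without shScram replicate 1 and 2 at Pre). From MCE to Diff 2 of 7 were called, against 26.7%, and both fell. Without either shScram library at Pre 6 were called, beside 50.9% and 51.0% of all genes. Fgf7 fell by 1.21 (adjusted p = 0.0167; 0.0801 to 0.0864 without any of the 4 libraries compared) and Fgfr2 by 0.77 (adjusted p = 0.00468). Fgfr2 in shFto thus returned at Diff to 107.5% of its Pre mean, while in shScram it was at 289% of its Pre mean.

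Whether the line difference itself changed between stages was tested as an interaction. From Pre to MCE 2 of 7 members were called, against 5.11% of all genes, and 4 and 6 without shScram replicate 1 and 2 at Pre, beside 14.1% and 52.5%. The difference of Fgf7 rose by 2.41 (limma adjusted p = 0.0155) and that of Fgf10 by 1.45 (adjusted p = 0.00565). For Fgf7 the adjusted p was 0.0561 to 0.0751 without either shFto library at Pre or any library at MCE, while it was 3.01e-05 without shScram replicate 1 at Pre, with a value of 1.83. From MCE to Diff 2 of 7 were called, against 2.49%, and 4 without either shScram library at Pre, beside 17.1%. The difference of Fgf2 fell by 2.1 (adjusted p = 0.0182) and that of Fgfr2 by 0.94 (adjusted p = 0.0485), and both were lost without any of the 8 libraries at MCE and Diff (adjusted p = 0.0637 to 0.0902 for Fgf2 and 0.1 to 0.209 for Fgfr2). Without either shFto library at Pre the adjusted p of Fgfr2 was 0.0711 and 0.0712.

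The other genes of the pathway were followed as 5 lists. Genes that FGF signalling is known to induce, several of which feed back on it, came first. Of 20 tested, 14 were called at Pre (13 higher, 1 lower), 13 at MCE (10 higher, 3 lower) and 13 at Diff (10 higher, 3 lower). The median log2 fold change was 0.96, 0.62 and 0.46, beside 0.08, 0.05 and 0.03 over all genes. Over all genes 28.2%, 17.8% and 21.2% were called at these stages. The Pre count was 9 without either shFto library of that stage, and with the 4 Pre libraries fitted alone limma called 0, with 12 at an unadjusted p under 0.05. Ier3, an immediate early gene, had 15.0 ± 0.549 TPM in shScram cells against 98.1 ± 1.61 TPM in shFto at MCE (SD, n = 2; log2 fold change 2.63, limma adjusted p = 0.000123). Etv4, a transcription factor downstream of FGF receptors, was at 1.55 ± 0.289 and 10.7 ± 0.181 TPM at MCE and at 2.80 ± 0.561 and 26.8 ± 0.482 TPM at Diff (SD, n = 2; log2 fold change 2.88, adjusted p = 0.000376). The phosphatase gene Dusp6 had a log2 fold change of 1.43 at Pre, 1.62 at MCE and 1.49 at Diff, and was named after its values had been seen. Lower in shFto were Ccnd1, which encodes cyclin D1, at MCE (-1.55) and Diff (-1.24), Spry1 at MCE (-0.78, adjusted p = 0.0126, and 0.0714 to 0.0923 without shScram replicate 2 or either shFto library at MCE) and Spry4 at Diff (-1.17, adjusted p = 0.00586, and 0.0537 without shFto replicate 1 at Diff), both Sprouty inhibitors. At Pre both were called higher in shFto, Spry1 by 1.94 (adjusted p = 0.000205) and Spry4 by 0.98 (adjusted p = 0.0146). Of the other Sprouty genes, named after their values had been seen, Spry2 was called higher at Pre (1.22) and Spry3 at all 3 stages (0.59, 0.73 and 0.47). Il17rd, also of this list and named in the same way, stayed under 5 TPM. It was called lower in shFto at MCE (-1.28, limma adjusted p = 0.00138) and at Diff (-0.66, adjusted p = 0.0263). These genes also answer to other growth factors.

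Heparan sulfate carriers and enzymes, which hold FGFs at the cell surface, moved in both directions. Of 17 tested of 20, 8 were called at Pre (7 higher, 1 lower), 7 at MCE (5 higher, 2 lower) and 8 at Diff (4 higher, 4 lower). The background was 28.2%, 17.8% and 21.2% of all genes. A gene in each of these counts, Hs6st2, was listed at 0 in all 6 shScram libraries and passed the filter only through shFto (0.772 to 2.79 TPM), so that it had to differ. The Pre count was 3 without either shFto library, 14 without shScram replicate 2 and 0 with the 4 Pre libraries fitted alone, with 6 at an unadjusted p under 0.05. The MCE count was 3 or 4 without any MCE library and 14 without either shScram library at Pre, and the Diff count was 4 without any Diff library and 5 without either shFto library at MCE. Gpc1, a glypican, had 19.7 ± 0.216 TPM in shScram cells against 80.8 ± 0.864 TPM in shFto at MCE (SD, n = 2; log2 fold change 1.98, limma adjusted p = 0.0158). Sdc3, a syndecan, had a log2 fold change of 1.94 at MCE and 1.86 at Diff, and Hs6st1, a sulfotransferase, 1.11 at Diff. Sulf2, which removes sulfate groups from heparan sulfate, fell by 1.15 at MCE and by 1.53 at Diff, and Glce, an epimerase of chain synthesis, by 0.82 and 0.97. The calls of Gpc1 and of Sdc3 were lost without any library of the groups compared (adjusted p = 0.076 to 0.0986), as was that of Hs6st1 (0.109 to 0.141), while those of Sulf2 and Glce were kept.

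**Figure D4:**
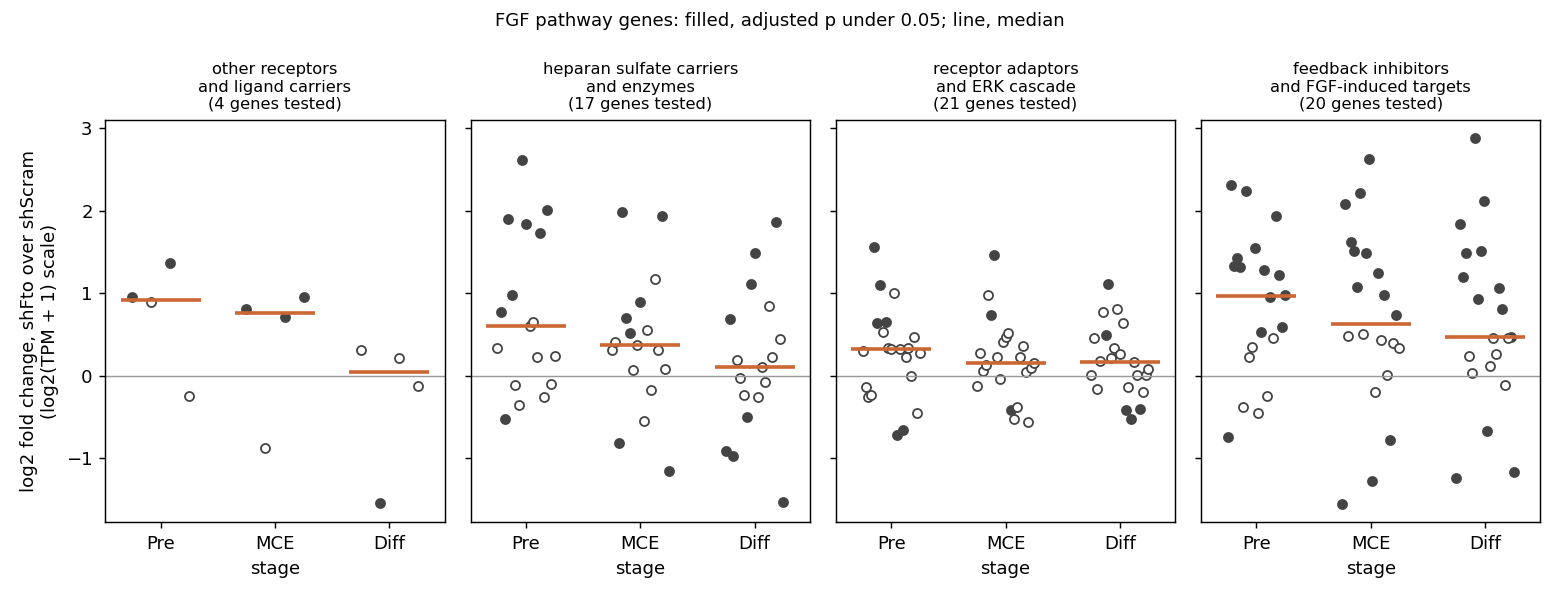
Log2 fold change of shFto over shScram (log2(TPM + 1) scale) for each tested gene of 4 pathway lists by stage, filled where the limma adjusted p was under 0.05, with an orange line at the list's median. The list of feedback inhibitors and targets has medians of 0.96, 0.62 and 0.46, and the kinase cascade list has medians of 0.32, 0.16 and 0.17.

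Receptor adaptors and kinases of the ERK cascade were called about as often as all genes (28.2%, 17.8% and 21.2%), so that their counts are no result about the list. Of 21 tested, 6 were called at Pre (4 higher, 2 lower), 3 at MCE (2 higher, 1 lower) and 5 at Diff (2 higher, 3 lower), with medians of 0.32, 0.16 and 0.17. Gab2, a docking protein, had 1.64 ± 0.0128 TPM in shScram cells against 6.27 ± 0.0798 TPM in shFto at MCE (SD, n = 2; log2 fold change 1.46, limma adjusted p = 0.000219), and Gab1 had a log2 fold change of 0.74 at MCE and 0.50 at Diff. Nras, a RAS protein of the cascade, fell by 0.52 at Diff. The calls of Nras and Gab1 at Diff were lost without any library of the groups compared (adjusted p up to 0.226), and that of Gab1 at MCE without shScram replicate 2 or shFto replicate 1 (adjusted p = 0.0555 and 0.0645). The Pre count was 2 without either shFto library, 18 without shScram replicate 2 and 0 with the 4 Pre libraries fitted alone, with 5 at an unadjusted p under 0.05. The MCE count was 1 without shScram replicate 2 or shFto replicate 1, the Diff count was 1 without any Diff library or either shFto library at MCE and 2 without either shFto library at Pre, and both counts were 11 without either shScram library at Pre.

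Of 8 other receptors and ligand carriers, 4 were tested, with 2 called higher at Pre (4 without shScram replicate 2, 0 with the 4 Pre libraries fitted alone, with 2 at an unadjusted p under 0.05), 3 higher at MCE (1 without either shScram library, 0 without shFto replicate 1, with 3 at an unadjusted p under 0.05) and 1 lower at Diff. Of all genes 15.9% and 10.5% were called higher at Pre and MCE and 9.31% lower at Diff. Fgfrl1, a receptor without a kinase domain, had 171 ± 13.7 TPM in shScram cells against 58.2 ± 3.62 TPM in shFto at Diff (SD, n = 2; log2 fold change -1.54, limma adjusted p = 0.00778, and 0.0579 without shScram replicate 1 or 0.0588 without shFto replicate 2). Fgfbp3, a carrier of FGFs, had a log2 fold change of 0.81 at MCE and Flrt3, a membrane protein that binds FGF receptors, 0.95, and both were lost without shScram replicate 1 at MCE (adjusted p = 0.0583 and 0.125) or shFto replicate 1 at MCE (adjusted p = 0.0752 and 0.195). The call of Flrt3 was also lost without any other MCE or Diff library or either shFto library at Pre (adjusted p = 0.0527 to 0.16). Of 16 other ligand genes, 2 passed the filter, and 1 was called lower at Pre (against 12.3% of all genes; 0 without either shFto library, with 1 and 2 at an unadjusted p under 0.05, and 0 with the 4 Pre libraries alone, with 2), none at MCE by limma, with 0 at an unadjusted p under 0.05, and 1 lower at Diff, where Fgf14, an intracellular member of the family, had 7.44 ± 1.26 TPM in shScram cells against 1.42 ± 0.202 TPM in shFto (SD, n = 2; adjusted p = 0.0102, and 0.0519 to 0.0741 without shScram replicate 2 or either shFto library).

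The genes whose course over the 12 libraries was nearest to each member were found by the root mean square difference of centred log2(TPM + 1) among 10799 genes with a mean of at least 5 TPM. For Fgfr2 they were Arhgap24 (0.332) and Acadm (0.486), with a median of 1.34 over all these genes. For Fgf10 they were Cd24a (0.148) and C1galt1 (0.165), for Fgf7 Ddias (0.324) and Grem1 (0.341), for Fgf2 Sema5a (0.346) and Cpt1a (0.35), for Fgf21 Mid1ip1 (0.36) and Epha2 (0.373), and for Fgfr1 Ephb4 (0.103) and Rtl8a (0.113). The 12 values share their libraries and their GC trend.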

How the data were processed

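Fragmented total RNA of 12 libraries was analysed. Per the study's methods and the submitters' processing notes, the reads were trimmed (Trim Galore 0.6.5) and aligned (HISAT2 2.1.0) to the mouse genome GRCm38. The authors computed TPM with StringTie 2.1.4 for Ensembl genes and deposited these values. Strand use in counting is not given in the sources used here. Counts were not used here, so the DESeq2 test of the authors was not repeated.

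From the deposited TPM, log2(TPM + 1) was fitted for 15968 genes (at least 1 TPM in 2 or more of 12 libraries) with limma 3.58.1 in R 4.3.3, using a mean per group, eBayes with trend, 6 residual degrees of freedom and two-sided tests with Benjamini-Hochberg adjustment. Interactions were contrasts. Fto was tested by exact permutation. Python 3.11.15 with pandas 2.3.3 and scipy 1.17.1 was used otherwise. The members and gene lists were chosen with earlier results of these data known. Beside all members, the text names, for each pathway list at MCE and Diff, up to 2 genes with the highest and 2 with the lowest log2 fold change among those called, at 5 TPM or more in a group and without overlap. Alternatives were the pseudocount, filters, scaling, a GC correction, eBayes without trend, a replicate block, the libraries fitted, the call rule of the study and each library left out. Coordinates are of GENCODE M21, which held 99.4% of the gene identifiers, and promoters of RefSeq GRCm38.p6. A gene that the naming rule picks is not reported here.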

Additional observations from a re-analysis of the deposited data

Results flagged for a closer look

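For 4 members the difference between shFto and shScram differed between stages by the limma interaction test. From Pre to MCE the difference of Fgf7 rose by 2.41 (standard error 0.42, adjusted p = 0.0155) and that of Fgf10 by 1.45 (standard error 0.21, adjusted p = 0.00565). From MCE to Diff the difference of Fgf2 changed by -2.1 (standard error 0.35, adjusted p = 0.0182) and that of Fgfr2 by -0.94 (standard error 0.20, adjusted p = 0.0485). The value of Fgf7 rests in part on shScram replicate 1 at Pre, at 244 TPM beside 108.9 TPM in replicate 2, and was 1.83 without it. The calls of Fgf2 and Fgfr2 were each lost without any 1 of the 8 libraries at MCE and Diff (adjusted p = 0.0637 to 0.0902 and 0.1 to 0.209). Fgf2 kept its call in 12 of 21 alternatives and Fgfr2 in 7 of 22.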

How the results depend on the processing

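TPM gives no depth, and precision is limited by having 2 libraries in a group. Of 1053 values of single members under the alternatives, 927 kept their direction and their side of the threshold, 80 lost the call, 42 gained it and 4 turned direction. None of the 4 was called: Fgf2 at Pre was -0.09 without shScram replicate 2 (0.75 without replicate 1), Fgfr3 at Pre was -0.23 with the GC correction, and Fgf21 at MCE was 0.05 with a pseudocount of 0.1 and 0.36 without shScram replicate 2 (-0.58 without replicate 1). The causes of these and the following changes were not tested, apart from smaller numbers of genes or libraries where a setting leaves them out. Without a shScram library at Pre, the line differences at MCE and Diff stay the same, while the spread shared by the groups changes.

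The number of members called at Pre (2) was 1 with the filter at a mean of 5 TPM, which leaves out Fgf2, Fgf21 and Fgfr3, 0 with the libraries of the contrast only, and 1 to 5 without 1 library. At MCE (4) no alternative moved it by more than 1.5 times. At Diff (3) it was 5 with the contrast's libraries only and 2 to 5 without 1 library. Averaged over the stages (5) it was 3 with the filter at 5 TPM, with quantile normalization and with the fold rule (fold change over 2 and unadjusted p under 0.05). From Pre to MCE in shScram (3) it was 0 with the contrast's libraries only and 2 to 5 without 1 library. From MCE to Diff in shScram (2) it was 1 with the filter at 5 TPM, either scaling and the fold rule, and 1 to 4 without 1 library. From Pre to MCE in shFto (4) it was 2 with the filter at 5 TPM and 7 with the GC correction. From MCE to Diff in shFto (2) it was 4 with the GC correction, 1 with the fold rule, 6 with the contrast's libraries only and 1 to 6 without 1 library. The interaction from Pre to MCE (2) gave 4 with the GC correction and the fold rule, 0 with the contrast's libraries only and 1 to 6 without 1 library. That from MCE to Diff (2) gave 0 with a pseudocount of 0.1 and the filter at 5 TPM, 1 without the trend and with the fold rule, 4 with the contrast's libraries only and 0 to 4 without 1 library. Where limma called 0 members, 1 to 4 had an unadjusted p under 0.05.

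Whether the replicate numbers pair the samples is not given in the sources used here. Over 15 pairs of groups the correlation of replicate differences was -0.29 to 0.17, with 2 over 0.1. These values cannot decide it, because the replicate differences also ran with GC content. Spearman's rho was -0.711 in shScram at Pre and 0.371 in shScram at Diff. With the replicate block, the interaction from MCE to Diff gave 1 member called and Fgfr1 from Pre to MCE in shScram had an adjusted p of 0.0567.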
